A study of Mus musculus with 9 samples.

Results

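The inflammatory cytokine genes Tnf (ENSMUSG00000024401), Il1b (ENSMUSG00000027398) and Il23a (ENSMUSG00000025383) were followed in the mouse macrophage-like line RAW264.7, 3 genes of the 311 in the deposited count table. They were taken by gene symbol. The study asked how let-7c-5p acts on macrophage polarization. It compared 4 libraries of cells given a negative control with 5 libraries of cells transfected with let-7c-5p mimics, all from the same line and labelled as biological replicates. The labels give no time after transfection, mimic dose or inflammatory stimulus. They do not say whether replicates came from separate cultures, so p-values measure the spread between these libraries. The table held 0 of 13 macrophage markers and 0 of the listed markers of T cells, B cells, neutrophils and fibroblasts, so the labelled cell type could not be checked here.

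Tumour necrosis factor, interleukin 1 beta and interleukin 23 are cytokines that macrophages release when innate sensors report infection or damage. Tnf encodes a membrane-bound ligand that proteases shed. It acts through receptors that switch on NF-kappaB or cell death. Il1b encodes a precursor that inflammasome-activated caspase 1 cuts before release. Il23a encodes p19, the subunit that joins the p40 product of Il12b to make interleukin 23, which sustains interleukin 17-producing T cells. The mRNAs of such cytokines are made in bursts through NF-kappaB and are short-lived, in part because proteins such as tristetraprolin bind AU-rich stretches in their 3′ untranslated regions (UTRs). A microRNA mimic is a synthetic duplex that loads the microRNA into Argonaute, where the seed directs it to target mRNAs.

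The mature let-7c-5p sequence (RefSeq, GRCm38.p6) is shown because its seed, bases 2 to 8, sets which mRNAs it can pair with. The seed is in capitals.
let-7c-5p: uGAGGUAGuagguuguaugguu

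Its full seed match, CTACCTC on the transcript strand, was looked for in the longest coding transcript of each gene (GENCODE M21, matched by gene ID). It was found at 0 places in the 3′ UTRs of Tnf, Il1b and Il23a, and at 0 places in the rest of these transcripts. This match is held by 5.56%, 3.72% and 4.23% of mouse 3′ UTRs with 0.8 to 1.2 times the length of the Tnf, Il1b and Il23a UTRs. The 6-base match to seed bases 2 to 7, TACCTC, was also absent from these 3 transcripts. The Tnf 3′ UTR held 2 matches to seed bases 3 to 8, CTACCT, at bases 348 to 353 and 589 to 594 of its 764 bases. A TACCTC or CTACCT match is held by 25.4% of 3′ UTRs of similar length. CTACCT also stood 1 time in the Il1b transcript, upstream of its 3′ UTR. It was found at 0 places in the Il1b 3′ UTR, the Il23a transcript and the rest of the Tnf transcript. Both Tnf matches are given with their flanks, the match in capitals.
Tnf first match: ctcaggccttcCTACCTtcagacctttc
Tnf second match: acctggcctctCTACCTtgttgcctcct

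A feature that the 3 genes shared was AU-rich sequence in the 3′ UTR. The pentamer ATTTA, counted on the transcript strand with overlaps allowed, stood 8 times in the Tnf UTR, 4 times in the Il1b UTR (459 bases) and 6 times in the Il23a UTR (657 bases). Counts at least as high were found in 0.345%, 3.40% and 1.51% of the 3′ UTRs of similar length. The longer motif TTATTTATT, which contains the pentamer, stood 5 times in Tnf, 1 time in Il23a and 0 times in Il1b, and is held by 4.18%, 3.78% and 2.71% of UTRs of similar length. The stretch of 30 bases with the most pentamers is given for each gene, with ATTTA in capitals.
Tnf: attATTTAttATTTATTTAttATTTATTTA
Il1b: caaccacttacctATTTATTTAtgtATTTA
Il23a: agtatagatgatggttATTTAttctATTTA

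The promoters of Tnf and Il1b (RefSeq, 250 bases before to 50 after the start site, GRCm38.p6, minus strand) are given. The promoter set used held no Il23a promoter, so that gene was not searched. Capitals mark GGGNNNNNCC, a loose NF-kappaB motif searched on both strands, and TATAAA, searched on the strand of the gene. Tnf held GGGNNNNNCC at 2 places, from bases -194 and 30, and TATAAA from base -29. Il1b held TATAAA from base -31 and 0 matches to GGGNNNNNCC. Of 32851 promoters of the same length, 50.8% hold GGGNNNNNCC and 8.32% hold TATAAA. The marked matches do not overlap each other.
Tnf, chr17:35201958-35202257: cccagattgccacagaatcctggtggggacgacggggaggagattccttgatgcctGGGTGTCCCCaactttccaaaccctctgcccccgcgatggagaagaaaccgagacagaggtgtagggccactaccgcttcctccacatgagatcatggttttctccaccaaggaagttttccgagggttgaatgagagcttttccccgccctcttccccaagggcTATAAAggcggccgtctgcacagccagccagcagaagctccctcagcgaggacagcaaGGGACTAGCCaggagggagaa
Il1b, chr2:129371090-129371389: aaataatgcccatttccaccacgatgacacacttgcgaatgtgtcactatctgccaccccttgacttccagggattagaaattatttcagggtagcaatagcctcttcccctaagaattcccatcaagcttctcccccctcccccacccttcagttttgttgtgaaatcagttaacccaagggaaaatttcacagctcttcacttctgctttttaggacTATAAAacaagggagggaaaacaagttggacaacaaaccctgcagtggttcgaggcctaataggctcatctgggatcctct

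The table limits what its counts can show. Column totals were 40655 to 50083 counts in control and 43241 to 83053 in let-7c-5p libraries, but they sum a gene selection, and sequencing depth is unknown. The log2 ratio of mean counts nearest to 0 was -0.98 among lower genes and 0.98 among higher genes, so each gene in the table already differed between these groups. Of 149 genes that passed the filter on low counts, 99.3% were called by edgeR (adjusted p under 0.05) and 48.3% were called lower. The calls of Tnf and Il23a therefore match what nearly every gene of the table gave and say little by themselves, and their p-values are too small as independent evidence. Gm10123, Gm6061 and Rpl17 held 29.3% to 35.7% of the counts in control and 48.0% to 71.9% in let-7c-5p libraries, which affects any scaling by column totals. The trimmed-mean (TMM) scaling used below assumes that most genes are unchanged, which does not hold in this selection. The sizes of the fold changes are therefore uncertain under TMM as well. In bulk RNA, fewer expressing cells and less RNA per cell cannot be told apart.

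Tnf was by far the most abundant of the 3 cytokine mRNAs and was lower in each let-7c-5p library than in any control library. The deposited counts in control replicates 1 to 4 were 8094, 8645, 9470 and 10417. In let-7c-5p replicates 1 to 5 they were 3413, 3695, 3879, 4313 and 3700. The groups did not overlap, and the gap between them was wider than the spread within either. The mean went from 9157 ± 1013 (SD, n = 4) to 3800 ± 332 (SD, n = 5), so that 41.5% of the control count was left. The spread of the deposited counts was narrow in both groups, with coefficients of variation of 11.1% in control and 8.73% with let-7c-5p. With TMM scaling these were 12.1% and 13.6%. After trimmed-mean (TMM) scaling, Tnf fell by 1.33 on the log2 scale (SE 0.23, edgeR quasi-likelihood test, adjusted p = 2.8e-04).

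**Figure D1:**
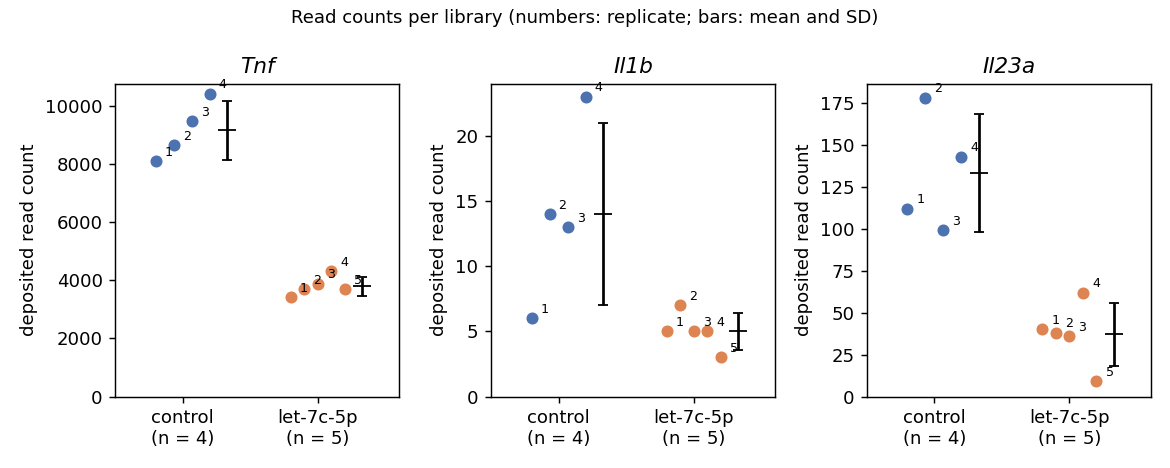
Deposited read counts of Tnf, Il1b and Il23a (vertical axes, each from 0) in 4 control and 5 let-7c-5p libraries, with replicate numbers beside the points and the mean and SD as bars. The groups are apart in Tnf and Il23a, while for Il1b control replicate 1, with 6 counts, lies within the let-7c-5p range of 3 to 7.

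Il1b had the fewest counts of the 3 genes. The control replicates had 6, 14, 13 and 23 counts, and the let-7c-5p replicates had 5, 7, 5, 5 and 3. Control replicate 1 lay below let-7c-5p replicate 2, so the groups overlapped, while the other 3 control libraries lay above every let-7c-5p library. The mean was 14 ± 6.98 counts (SD, n = 4) in control and 5 ± 1.41 (SD, n = 5) with let-7c-5p. From the summed counts, 56 and 25, exact Poisson 95% intervals of the mean were 10.6 to 18.2 and 3.24 to 7.38, which cover counting error only. The control SD was above the 3.74 that counting alone gives at that mean, but was 4.19 after TMM scaling. The let-7c-5p SD was below the 2.24 that counting gives at its mean.

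Il1b did not pass edgeR's filter and was tested by an exact permutation test of log2(TMM-scaled count + 1). It fell by 1.28 on that scale (SE 0.27, exact permutation test, two-sided, p = 0.016, the smallest that 4 against 5 libraries allow). The p adjusted over all 311 genes was 0.027 (exact permutation test), and 39.2% of those genes were called lower by this test. The call was lost with column totals (-1.60, adjusted p = 0.054, exact permutation test). After TMM scaling the lowest control value was 7.99 and the highest let-7c-5p value 6.85, but the groups overlapped under each of the other scalings, DESeq2 size factors, column totals with and without the 3 abundant genes, and no scaling. The antisense gene Il1bos overlaps Il1b on the opposite strand. No source used here says whether counting used strand. How reads from the overlap were counted, and what they did to the low Il1b count, is therefore unknown.

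Il23a was lower in each let-7c-5p library than in any control library. Control replicates 1 to 4 had 112, 178, 99 and 143 counts. The let-7c-5p replicates 1 to 5 had 40, 38, 36, 62 and 9. Replicate 5 was the lowest of its group and replicate 4 the highest, yet the latter was still below the lowest control library. The mean went from 133 ± 35.2 (SD, n = 4) to 37 ± 18.8 (SD, n = 5), with 27.8% of the control count left. Il23a fell by 1.97 on the log2 scale (SE 0.32, edgeR quasi-likelihood test, adjusted p = 2.0e-04). Without let-7c-5p replicate 5 it fell by 1.69 (adjusted p = 2.2e-05). Across the table, 19.3% of genes had deposited counts that were lower in every let-7c-5p library without overlap, as Tnf and Il23a had.

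**Figure D2:**
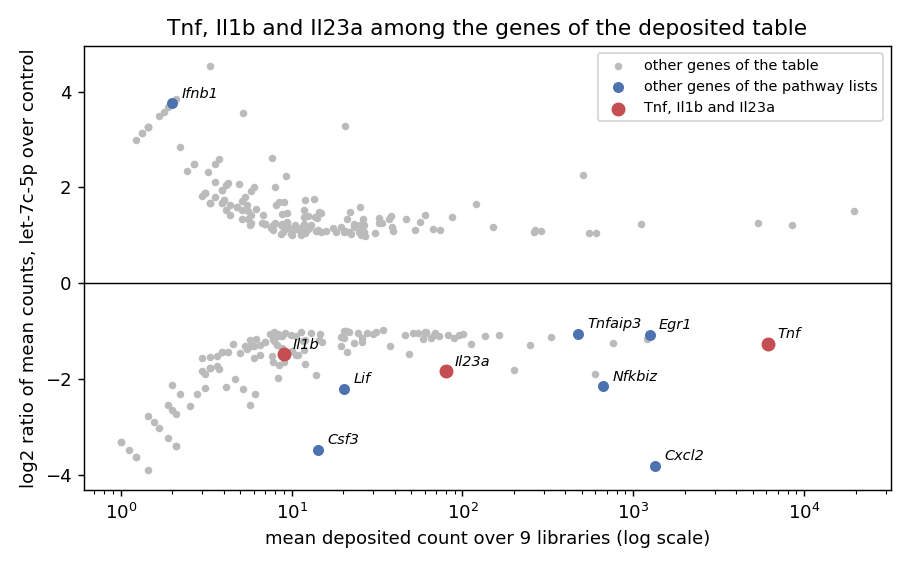
Log2 ratio of mean deposited counts, let-7c-5p over control (vertical axis), against the mean count over 9 libraries (horizontal log axis) for 299 genes; 12 genes with a mean of 0 in a group, Csf2 among them, cannot be drawn. No gene lies near 0, and Tnf (-1.27), Il23a (-1.85) and Il1b (-1.49) lie in the lower band.

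Fold changes depended on the scaling in size but not in direction. Tnf ranged from -0.91 (column totals without Gm10123, Gm6061 and Rpl17) to -1.67 (column totals) in edgeR, Il23a from -1.51 to -2.21, and Il1b from -0.91 to -1.60 in the permutation fit. Relative to TMM, the median shift of single tested genes was 0.42 (log2) and -0.35 in these settings. The share of calls that were higher went from 51.4% with TMM to 61.1% and 29.4%. The 3 genes shifted in the direction of this median, by similar amounts. With unscaled counts, Tnf fell by 1.27 and Il23a by 1.84.

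**Figure D3:**
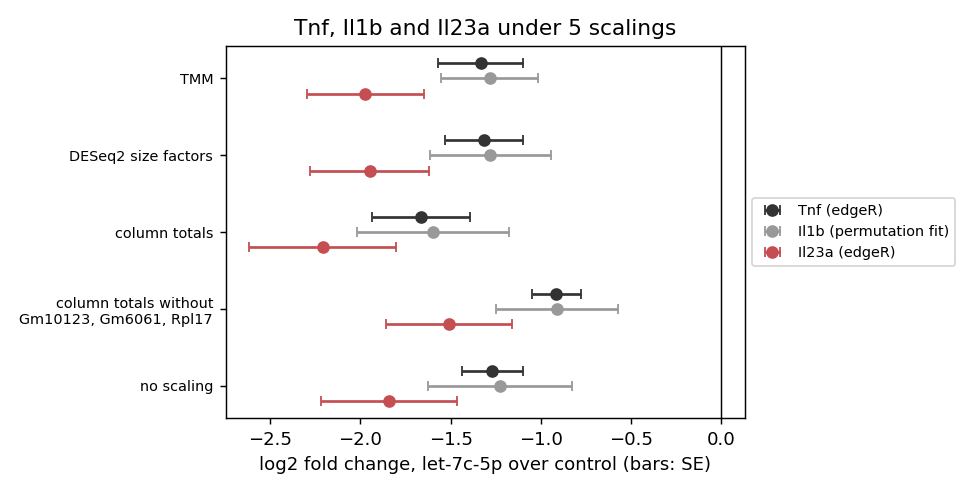
Log2 fold change of Tnf, Il1b and Il23a, let-7c-5p over control (horizontal axis, bars are SE), under 5 scalings. All points lie below 0, and each gene is closest to 0 with column totals that leave out Gm10123, Gm6061 and Rpl17 and farthest from 0 with column totals.

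Ratios of the counts within a library do not depend on scaling and show whether the 3 mRNAs kept their proportions. Tnf over Il23a was 72.3, 48.6, 95.7 and 72.8 in control replicates 1 to 4, and 85.3, 97.2, 107.8, 69.6 and 411.1 in let-7c-5p replicates 1 to 5. The groups overlapped, and replicate 5, with its 9 Il23a counts, stood apart. The mean log2 ratio was 6.14 ± 0.40 (SD, n = 4) in control and 6.91 ± 1.02 (SD, n = 5) with let-7c-5p. The difference of 0.78 (SE 0.50) did not exceed the spread (exact permutation test, two-sided, p = 0.14, adjusted p = 0.21 over 3 ratios), and it was 0.34 without replicate 5. A difference between Tnf and Il23a in how far they fell was therefore not detected.

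Tnf over Il1b, with 1 added to each count, had a mean log2 ratio of 9.38 ± 0.59 in control (SD, n = 4) and 9.34 ± 0.37 with let-7c-5p (SD, n = 5), a difference of -0.04 (SE 0.34, exact permutation test, p = 0.92, adjusted p = 0.92). Il23a over Il1b was 3.25 ± 0.66 (SD, n = 4) and 2.48 ± 0.76 (SD, n = 5), a difference of -0.77 (SE 0.47, exact permutation test, p = 0.14, adjusted p = 0.21). These p-values do not show that the ratios were equal. With so few Il1b counts, its ratios carry a large counting error.

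**Figure D4:**
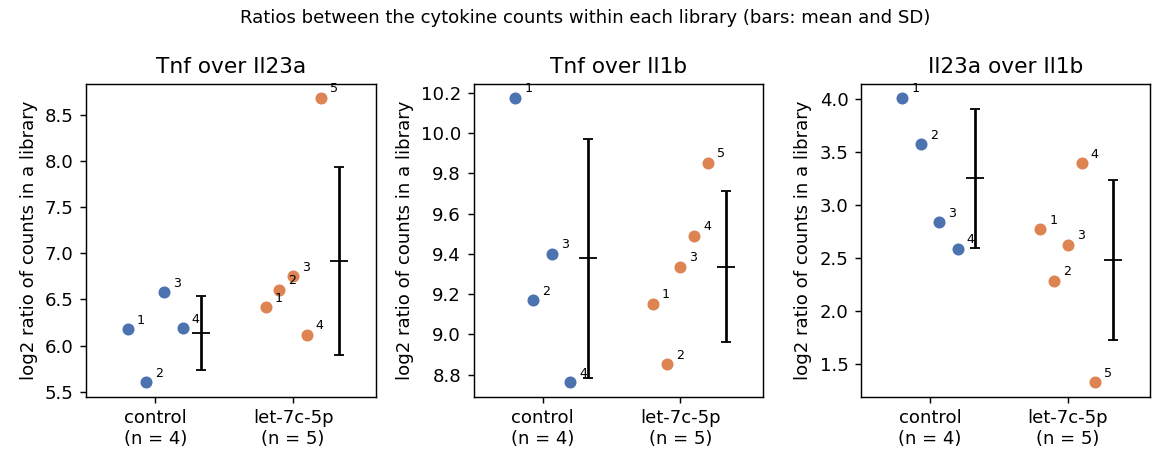
Log2 ratio of counts (vertical axes, not from 0) of Tnf over Il23a, Tnf over Il1b and Il23a over Il1b in each library, with replicate numbers and the mean and SD as bars. The groups overlap in each ratio, and let-7c-5p replicate 5 has the highest Tnf over Il23a ratio, 8.68.

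Levels were compared between the genes as counts per kilobase of the longest coding transcript (1639 bases for Tnf, 1356 for Il1b and 1360 for Il23a). In control, Tnf had 5587 ± 618 counts per kilobase, Il23a 97.8 ± 25.9 and Il1b 10.3 ± 5.14 (SD, n = 4). With let-7c-5p these levels were 2318 ± 202, 27.2 ± 13.9 and 3.69 ± 1.04 (SD, n = 5). The order Tnf, Il23a, Il1b held in each of the 9 libraries. Among 191 genes of the table with a coding transcript, Tnf ranked 1 or 2 per kilobase in every library. Il23a ranked 14 to 22 in control, 26 to 34 in let-7c-5p replicates 1 to 4, and 79 in let-7c-5p replicate 5.

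Few other genes of these cytokine pathways were in the table. Of 18 listed genes of TNF ligands, receptors and release, Tnf was the only one present, and Il1b was likewise alone of 23 genes of the interleukin 1 family and inflammasome. Il23a was the only one of 15 genes of the interleukin 12 and 23 family, so its partner subunit gene Il12b was not analysed here. Of 16 toll-like receptor sensing genes and 12 regulators of cytokine mRNA decay, 0 were present. Zc3h12c (ENSMUSG00000035164), a relative of the cytokine mRNA-degrading RNase gene Zc3h12a, stood outside the lists and was picked after its values were seen. It had 471.5 ± 104.5 counts in control (SD, n = 4) and 217 ± 50.3 with let-7c-5p (SD, n = 5) and fell by 1.18 on the log2 scale (SE 0.17, edgeR quasi-likelihood test, adjusted p = 9.2e-05). Absence from this selected table gives no value for a gene.

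Of 23 genes of NF-kappaB and AP-1 transcription, 3 were present and 3 fell, in a table where 99.3% of tested genes were called and 48.3% were called lower. Nfkbiz (ENSMUSG00000035356), an inducible NF-kappaB cofactor, went from 1175 ± 153 to 264 ± 67.5 counts. Tnfaip3 (ENSMUSG00000019850), which encodes the NF-kappaB inhibitor A20, went from 667 ± 121 to 320 ± 63.8, and Egr1 (ENSMUSG00000038418), an immediate early transcription factor, from 1771 ± 365 to 837 ± 120 (SD, n = 4 and n = 5 throughout). Of 24 other inflammatory cytokines and chemokines, 5 were present. Cxcl2 (a neutrophil chemokine), Csf3 (granulocyte colony-stimulating factor) and Lif (an interleukin 6 family cytokine) fell by 3.96, 3.56 and 2.28 on the log2 scale (edgeR, SE 0.37, 0.54 and 0.45), more than Tnf in size, although these differences were not tested. Csf2 and Ifnb1 did not pass the filter. Csf2, a myeloid growth factor gene, had a mean of 5.25 counts in control and was at 0 in each let-7c-5p library. Ifnb1, the interferon beta gene, was higher, with means of 0.25 and 3.4 counts, the opposite direction. Among tested genes with a negative fold change, the median was -1.20 on the same scale. The median over all 149 genes tested, 0.93, is not a typical value. No gene lay near 0, and lower and higher genes were nearly equal in number.

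The genes with the most similar pattern over the 9 libraries were ranked by the root-mean-square difference of log2(TMM-scaled count + 1), each gene taken relative to its own control mean, among genes that averaged 50 counts or more. For Tnf these were Acod1, which encodes the enzyme that makes itaconate (0.19), Egr1 (0.24) and Tnfaip3 (0.25). For Il23a they were Lcn2, a siderophore-binding protein gene (0.42), Nfkbiz (0.50) and the carbonic anhydrase gene Car6 (0.53). For Il1b they included the DNA polymerase gene Polq (0.28) and the receptor gene Calcrl (0.34). These distances describe likeness among 47 or 48 candidate genes that were all chosen for a group difference.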

How the data were processed

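RNA sequencing counts of 9 RAW264.7 libraries were used. The deposited table holds raw whole-number counts per gene, 1 column per library, not normalized. Alignment, counting and analysis tools named in the submitters' processing notes were HISAT2 2.1.0, HTSeq 0.11.2, FastQC 0.11.9, R 4.3.2 and DESeq2. Genome build, annotation and strand setting were not given in the sources used. The genes and gene lists were chosen with earlier results of these data known.

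edgeR 4.0.16 in R 4.3.3 was fitted to the whole table (TMM, filterByExpr with a minimum count of 10, two-sided quasi-likelihood test, group as the only term), with Benjamini-Hochberg adjustment over 149 tested genes. SEs were derived from the fold change and F. Il1b failed the filter, so all 311 genes were also tested by exact permutation. Named genes were the 3 cytokine genes, list genes in the table and the 3 genes most like each. Of the latter, 1 is not reported here. Replicates differed beyond sampling noise in each of 16 pairs (chi-square over its degrees of freedom, 2.51 to 85.3). The edgeR and permutation steps were run on simulated data, and only the edgeR outcome is described here. With as many genes raised as lowered and each change split over both groups, edgeR recovered most of the changes put in. A first version changed as many genes but started from the control means. It drew raised and lowered genes at random and put each change on the let-7c-5p group alone. It shifted edgeR's fold changes downward and gave too many calls among unchanged genes. Both versions left part of the genes unchanged, unlike the deposited table, so they cannot show how well the scaling works on it. Alternatives were other scalings, no filter, DESeq2 1.42.0, limma-voom (limma 3.58.1), another pseudocount, a replicate block and leaving out libraries. Of the 311 IDs, 295 matched GENCODE M21.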

Additional observations from a re-analysis of the deposited data

Results flagged for a closer look

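The Tnf over Il23a log2 ratio in let-7c-5p replicate 5 was 8.68, far from the 6.12 to 6.75 of the other 4 libraries of its group. That library had 9 Il23a counts and the highest column total, 83053 counts, with 71.9% of them in Gm10123, Gm6061 and Rpl17, while its Tnf count of 3700 lay within the range of the other libraries. The part of these library features in the ratio was not tested. It was the only flag among 18 sets of values checked, and chance flags about 1 in 20.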

How the results depend on the processing

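Under the scalings, tests, block fits and leave-one-out fits run, Tnf, Il23a and Il1b stayed lower with let-7c-5p, and Tnf and Il23a stayed called, as the choice of genes on these libraries made likely. Leaving out each library gave -1.52 to -1.18 for Tnf, -2.26 to -1.69 for Il23a and -1.51 to -1.17 for Il1b. The Il1b call was lost without control replicate 2, 3 or 4 (adjusted p = 0.054, 0.057 and 0.055, exact permutation test), where the raw p was 0.036, the smallest that 56 splits allow. It was also lost with column totals (-1.60). Without both control replicate 1 and let-7c-5p replicate 5, the libraries of lowest and highest total, it was -1.41 (a setting chosen after seeing the data), where 3 against 4 libraries allow no raw p below 0.057, so no call was possible. edgeR without the filter gave Il1b -1.49 (adjusted p = 0.0029). Over the other alternatives its adjusted p ranged from 0.0010 (DESeq2) to 0.057. The Tnf over Il1b difference, near 0, changed sign with a pseudocount of 0.5 (0.032) and ranged from -0.25 to 0.23 when leaving out libraries. Tnf over Il23a ranged from 0.34 to 0.98 and Il23a over Il1b from -1.0 to -0.48, with no call. Against 148 calls (76 higher, 72 lower), no filter gave 311 (170 and 141), since it tests more genes. DESeq2, which changes the gene set and the test, gave 237 (96 and 141), and the cause of its difference from no filter was not tested. Column totals gave 30 higher and 72 lower, and column totals without the 3 abundant genes 77 and 49. Leaving out libraries gave 131 to 164 calls. With the replicate number as a block, 8 libraries gave -1.36 for Tnf, -1.69 for Il23a and 140 calls, and edgeR without filter gave -1.74 for Il1b. The paired ratio differences were 0.34, -0.17 and -0.48, where 4 pairs cannot reach the threshold. Same-numbered libraries did not deviate together (correlations -0.22 to 0.03, 0 of 4 best with their own number). Depth is unknown, and Il1b counts limit what can be seen.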

Other observations

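Other genes of the TNF and interleukin families were looked up by symbol after their values had been seen. Tnfsf12 (ENSMUSG00000097328), a TNF superfamily ligand gene, went from 10.5 ± 2.38 counts in control (SD, n = 4) to 23.2 ± 2.77 with let-7c-5p (SD, n = 5), a log2 fold change of 1.08 (SE 0.30, edgeR quasi-likelihood test, adjusted p = 0.0041), opposite in direction to Tnf. It overlaps the readthrough gene Tnfsfm13 on the same strand, so its reads are uncertain. Tnfrsf8 (ENSMUSG00000028602), which encodes the receptor CD30, had 2.5 ± 0.58 and 7.2 ± 1.92 counts and did not pass the edgeR filter. Eda2r (ENSMUSG00000034457), another receptor of the superfamily, fell from 34 ± 5.23 to 16.6 ± 5.03 counts. The receptor gene Il7r (ENSMUSG00000003882) had 3.75 ± 0.96 and 12.2 ± 6.61 counts, in the opposite direction to Il1b and Il23a. Il7r did not pass the edgeR filter either, and its groups were not fully apart. Il11ra2 (ENSMUSG00000078735), a receptor gene that also failed the filter, had 0.25 ± 0.5 and 5.8 ± 5.81 counts (exact permutation test, adjusted p = 0.085).

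The motif TTATTTATT, present in the 3′ UTRs of Tnf and Il23a, was counted over the table, a comparison chosen after seeing the data. It stood in 16 of 71 genes with a lower mean count after let-7c-5p and an annotated 3′ UTR (22.5%), and in 4 of 115 genes with a higher mean (3.48%), against 7.57% of 20969 mouse genes. Besides Tnf and Il23a, the lower genes with the motif included Cxcl2, Csf2, Lif, Ptgs2, Acod1 and Tnfaip3. The 3′ UTRs of the lower genes were longer, with a median of 1540 bases against 644, and the part of length in these shares was not tested. No test was made, because the genes of the table were chosen for their difference between the groups.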
